A study of Cavia porcellus with 12 samples.

Results

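The data described here are the sequences listed under the human precursor name hsa-mir-140, the hairpin of miR-140. They were selected by row name, as every entry of 3 deposited tables whose name ends in that precursor, and the precursor itself was chosen from values of these tables in an earlier reading of the same data, so all levels and ratios below are descriptions. Of 5095 different entries over the 3 tables, 38 carried the name. Isolated ventricular cardiomyocytes of guinea pig (Cavia porcellus) were treated with doxorubicin (DOX), a chemotherapy drug of the anthracycline class, or with DMSO as vehicle, and small RNA was sequenced from 12 libraries. The groups were DOX at 10 µM for 1 h, DMSO for 1 h, DOX at 10 µM for 22 h and DMSO for 22 h, with 3 libraries each. One table compared DOX with DMSO at 1 h (the 1 h table), one compared them at 22 h (the 22 h table) and the third compared DOX at 22 h with DOX at 1 h (the third table). All groups came from adult female animals of the Hartley strain, with cells taken from the heart ventricles after enzymatic dissociation and kept at room temperature, and the reads were assigned to human sequences.

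miR-140 lies in an intron of WWP2, a ubiquitin ligase gene, and is best known from cartilage, where it is abundant in chondrocytes and its loss disturbs skeletal growth. Its hairpin gives 2 mature arms, 5p and 3p, named for the side of the hairpin they come from, and each can be loaded into Argonaute with a seed near its 5′ end that pairs with target mRNAs. In the heart it has been studied in doxorubicin cardiotoxicity, where the 5p arm was linked to oxidative stress. A sequence that differs from others of its arm in start, end or a single base is called an isomiR, and a shifted start changes the seed.

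Selected sequences are shown, among them the most abundant entry of each start in the third table and most of the variants compared below. Capitals mark the bases after the 3′ end of the stretch common to an arm, while bases before that stretch stay in lower case. The 3p variants C20T and T21A and several abundant 3p entries are not shown. Each name gives the arm, the start position in the entry name and the length in bases.
5p, start 24, 20 bases: gtggttttaccctatggtaG
5p, start 24, 20 bases, G20A: gtggttttaccctatggtaA
5p, start 24, 21 bases: gtggttttaccctatggtaGT
5p, start 24, 21 bases, T21A: gtggttttaccctatggtaGA
3p, start 63, 19 bases: ccacagggtagaaccACGG
3p, start 64, 18 bases: cacagggtagaaccACGG
3p, start 64, 18 bases, G18T: cacagggtagaaccACGT
3p, start 64, 20 bases: cacagggtagaaccACGGAC
3p, start 64, 20 bases, C20A: cacagggtagaaccACGGAA
3p, start 64, 21 bases: cacagggtagaaccACGGACT
3p, start 65, 20 bases: acagggtagaaccACGGACT
A token such as G18T gives the base of the most abundant entry of the same start and length, the position counted from 1 at the 5′ end of that entry, and the base of the variant. The stretch shared by the 4 entries of the 5p arm was 19 bases long, and that shared by the 3p entries found in all 3 tables was 13 bases long. As background, the annotated human mature arms of miR-140 begin upstream of all these starts. No reference mature or hairpin sequence was used here, so the missing bases were not measured and no seed is marked. Whether bases had been trimmed from the 5′ end of the reads was not tested. All starts and lengths below are therefore those of the deposited entries. Mature miRNAs mostly begin with U, while over all named entries of the third table those beginning with T held 11.6% of the mean counts.

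Of the 38 mir-140 entries, 28 stood among the 1610 entries of the 1 h table, 27 among the 1335 of the 22 h table and 37 among the 4979 of the third table. All 3 tables shared 27 of them, 4 in the 5p arm and 23 in the 3p arm. The 10 entries listed in the third table alone had means from 0 to 10.5 normalized counts and held 0.554% of the mir-140 mean counts there. The remaining entry, a 21-base 3p sequence, stood in the 1 h table alone and had no usable mean. No mir-140 sequence was listed under another precursor.

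The 3p arm was the more abundant arm of miR-140 in every table. The authors' mean, in normalized counts over both groups of a table, summed to 2800 for 5p and 5694 for 3p at 1 h. At 22 h the sums were 1858 for 5p and 4422 for 3p, and in the third table they were 2838 for 5p and 5235 for 3p. The tables were normalized separately, so these levels are set side by side only. The decimal mark of each mean at 1 h and 22 h was placed by the third table, so similar levels are partly built in. The 3p arm held 67.0% of the mir-140 mean counts in the 1 h table (exact Clopper-Pearson 95% interval 66.0 to 68.0), 70.4% in the 22 h table (69.3 to 71.5) and 64.8% in the third table (63.8 to 65.9). These intervals, and all others given here, cover no more than counting error. Those for whole tables, here and for start 64 below, were computed from summed means rounded to whole counts, not from reads. They are therefore a guide only. None of the intervals for the 3 tables overlapped, but the 22 h table and the third table share a library, as described below. Ranked by summed mean, mir-140 3p stood at place 70 of 346 precursor arms in the 1 h table, 66 of 319 in the 22 h table and 68 of 427 in the third table, and 5p stood at places 88, 90 and 86. mir-140 as a whole held 0.145% of all mean counts in the 1 h table, 0.131% in the 22 h table and 0.134% in the third table.

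The arms whose level over the 3 tables was nearest to that of mir-140 3p, by the summed absolute log2 difference of their summed means, were mir-92a-2 3p at 0.13, mir-103a-1 3p at 0.22, mir-103a-2 3p at 0.23, mir-149 5p at 0.23 and mir-186 5p at 0.26.

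Reads of single libraries could be solved from the means in the tables that include DOX at 22 h. All 1323 restored means at 22 h and all 2369 means above 0 in the third table could be built from whole reads in a pair of libraries, within a relative tolerance of 1e-13. One of the libraries was the same in both tables: its reads satisfied both in 1052 of 1052 entries with a single solution at 22 h, against 132 for the next best assignment. The 3 libraries are named by the tables that hold them and were not assigned to samples. DOX at 22 h is the only group that both tables compare, and the names of predicted miRNAs carried replicate number 1 in 12 of 12 cases at 22 h and 29 of 29 in the third table. With 1 library a side there is no replicate check and no test. For miR-140, the reads of all 27 entries in all 3 tables were solved in the 3 libraries, and each had at least 10 reads in every pair compared.

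In 2 of the 3 libraries the 3p arm had about the same share, and in the library of the third table only it was lower. The library in both tables held 2215 reads of 5p and 5332 of 3p. The library of the 22 h table only held 1534 reads of 5p and 3598 of 3p. The library of the third table only held 3589 reads of 5p and 4915 of 3p. The 3p share was therefore 70.7% (exact 95% interval 69.6 to 71.7) in the library in both tables, 70.1% (68.8 to 71.4) in the library of the 22 h table only and 57.8% (56.7 to 58.8) in the library of the third table only. The mean share of the third table thus lies between values of 2 libraries that did not overlap.

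**Figure D1:**
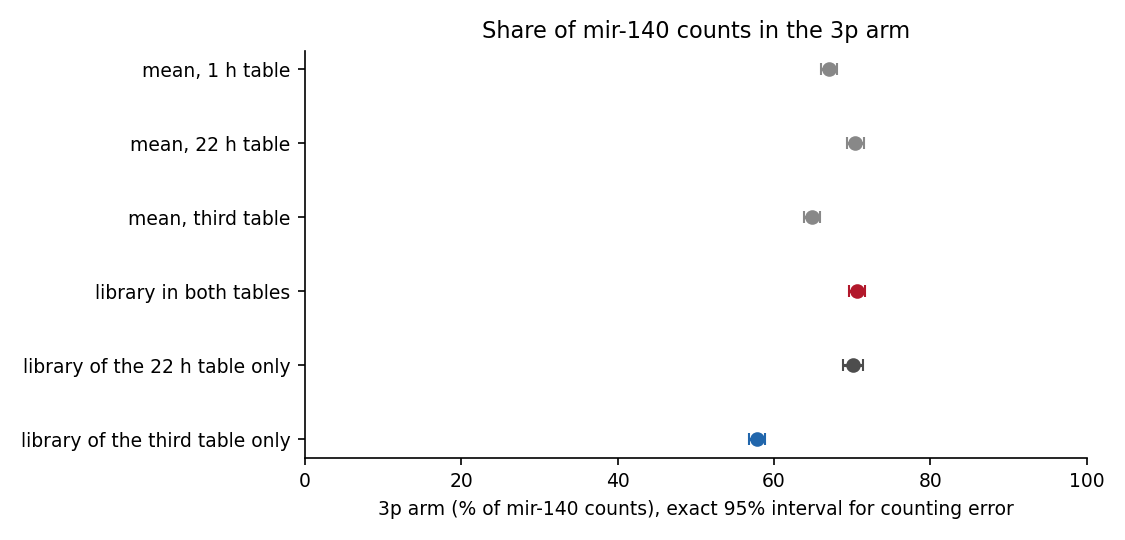
Share of mir-140 counts in the 3p arm (percent, horizontal axis) for the authors' means in 3 tables and for the recovered reads of 3 libraries, with exact 95% intervals for counting error. For the means, the intervals were computed from rounded sums of means and are a guide only. The library of the third table only, at 57.8%, lies below the other libraries at 70.1% and 70.7%.

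Between the library in both tables and the library of the third table only, the arms of miR-140 moved in opposite directions. After scaling by the size factors, the log2 ratio was -0.33 (exact 95% interval -0.41 to -0.26) for 5p and 0.48 (0.42 to 0.54) for 3p. The odds of 3p over 5p were 1.76 times as high in the library in both tables (exact conditional interval 1.65 to 1.88). Against the library of the 22 h table only, both arms were higher in the library in both tables, by a log2 ratio of 0.36 (0.27 to 0.46) for 5p and 0.40 (0.34 to 0.46) for 3p, and the odds ratio was 1.03 (0.949 to 1.11). The 5p value of this pair rests on the most abundant 5p entry, whose reads of 1459 and 873 could be solved only from both tables jointly: over the other 5p entries, which had a single solution in the 22 h table alone, the log2 ratio was 0.024. In bulk samples, fewer cells of a type and less RNA per cell cannot be told apart.

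These ratios were set beside those of 113 arms from 104 precursors with at least 100 reads in each of the 3 libraries and at least 95% of their mean counts recovered, limits chosen after seeing the data. Against the library of the third table only, the arms had a median log2 ratio of -0.0042, with 5th and 95th percentiles of -0.37 and 0.40. There mir-140 3p lay below 2 arms and mir-140 5p above 9. Against the library of the 22 h table only, the median was 0.04 with percentiles of -0.47 and 0.69, and 15 arms lay above mir-140 3p and 17 above mir-140 5p. Both arms passed these limits in 9 precursors. They include mir-199a-1, mir-199a-2 and mir-199b, with 3289, 3262 and 3275 reads of 3p in the library in both tables, which may not be separate measurements. Over the 9 precursors, the difference of the log2 ratios of 3p and 5p against the library of the third table only was 0.81 for mir-140. The next in size were mir-339 at -0.44 and mir-208a at 0.42. The same difference against the library of the 22 h table only was 0.04 for mir-140, and 6 of the other precursors had a larger one in size.

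**Figure D2:**
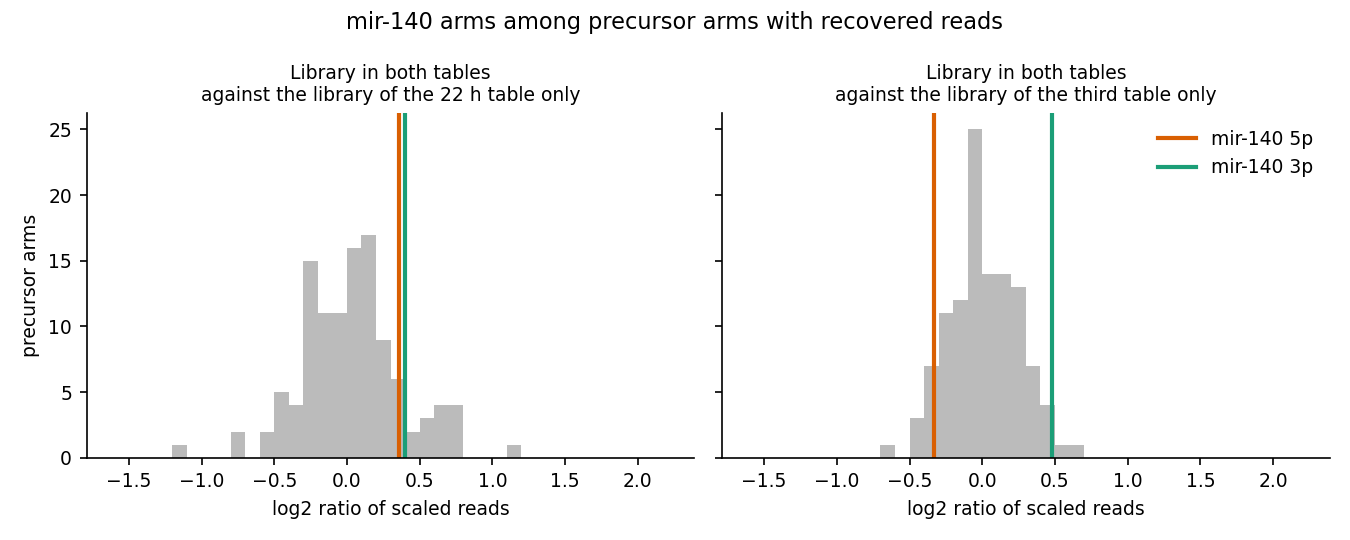
Number of precursor arms (vertical axis) by log2 ratio of scaled reads (horizontal axis) between the library in both tables and each of the other libraries, with lines at the mir-140 arms. On the left the mir-140 arms lie together at 0.36 and 0.40, and on the right they lie apart at -0.33 and 0.48.

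The single entries of miR-140 were spread around these sums. Against the library of the third table only, all 4 entries of 5p lay below 0, from -0.38 to -0.16 with 0.5 added to the reads, and the interval excluded 0 for 2 of them. Of the 23 entries of 3p, 21 lay above 0, and the interval excluded 0 for 13, all of them higher in the library in both tables. Against the library of the 22 h table only, the 3p entries ran from -1.02 to 0.97, with 8 intervals above 0 and 1 below. The 5p entries ran from -0.57 to 0.57 in that pair, with 2 intervals above 0 and 1 below. Past 2-fold in either direction were 1 of the 27 mir-140 entries in this pair and 2 of 27 against the library of the third table only. Over all entries with at least 10 recovered reads, 10.9% (133 of 1216) and 7.65% (93 of 1215) were past 2-fold, so these counts do not set mir-140 apart.

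The 3p entry with the highest mean in all 3 tables, start 63 with 19 bases, had 793 reads in the library in both tables, 510 in the library of the 22 h table only and 785 in the library of the third table only. Its log2 ratios were 0.47 (0.31 to 0.63) and 0.38 (0.23 to 0.52). The entry at start 64 with 20 bases had 616, 320 and 514 reads, and log2 ratios of 0.78 (0.58 to 0.97) and 0.62 (0.45 to 0.80). The main 5p entry had 1459, 873 and 2429 reads, and log2 ratios of 0.57 (0.45 to 0.69) and -0.37 (-0.47 to -0.28). Each of these 3 entries was highest, after scaling, where its arm was highest.

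**Figure D3:**
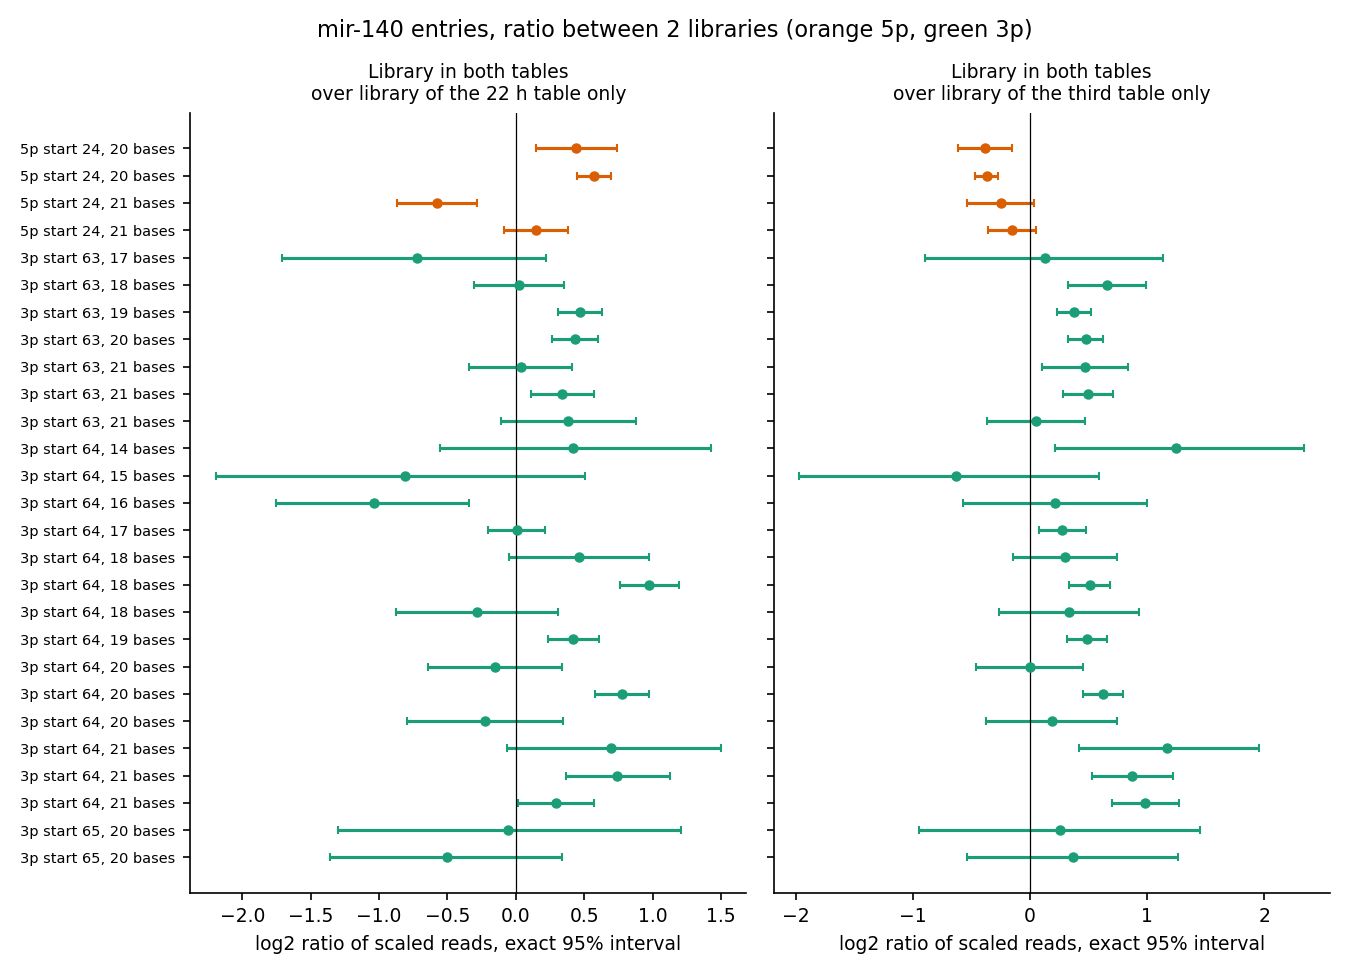
Log2 ratio of scaled reads (horizontal axis) for each of 27 mir-140 entries, named by arm, start and length, between the library in both tables and each of the other libraries, with exact 95% intervals for counting error. On the right the 4 entries of 5p lie below 0 and 21 of the 23 entries of 3p lie above it.

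The 5p arm had a single start and the 3p arm was split between neighbouring starts. Every 5p entry began at position 24. In the 3p arm, start 64 held 54.7% of the mean counts in the 1 h table (53.4 to 56.0), 54.7% in the 22 h table (53.2 to 56.2) and 54.8% in the third table (53.5 to 56.2). Start 63 held 44.7%, 44.4% and 44.3%, and start 65 held 0.634%, 0.876% and 0.906%. The split was as even within libraries, where start 64 held 55.5% of the 3p reads (54.1 to 56.8) in the library in both tables, 53.7% (52.1 to 55.3) in the library of the 22 h table only and 54.0% (52.6 to 55.4) in the library of the third table only. These intervals overlap, so a shift of the start was not detectable at this depth. Among 48 arms on the 3p side with a summed mean of at least 1000 in the third table, a limit chosen after seeing the data, the main start held a median of 99.9% of the counts, and mir-203a at 52.1% was the only arm below mir-140. The next above were mir-208b at 55.9% and mir-133a-1 at 69.1%. Of 74 such arms on the 5p side, 45 had a single start, as mir-140 5p had.

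**Figure D4:**
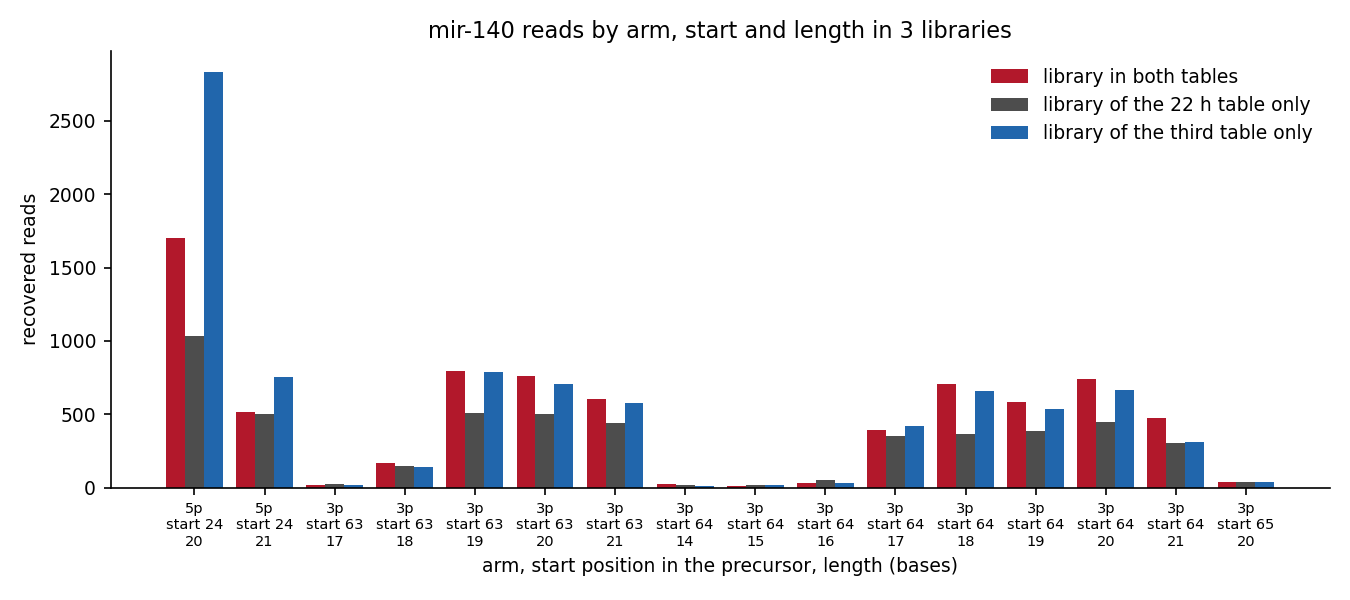
Recovered reads (vertical axis) of mir-140 in 3 libraries by arm, start position and length in bases (horizontal axis), not scaled for depth. The 5p arm stands at 1 start, and the 3p arm is split between starts 63 and 64.

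Lengths were narrow in 5p and broad in 3p. The 5p entries were 20 or 21 bases long, and those of 20 bases held 76.2% of the 5p mean counts in the 1 h table, 72.7% in the 22 h table and 78.1% in the third table. The mean 5p length, weighted by counts, was 20.2 bases in the 1 h table, 20.3 in the 22 h table and 20.2 in the third table. The 3p entries ran from 13 to 21 bases, with weighted means of 19.4, 19.3 and 19.3 bases. Within 3p, the mean length at start 63 was 19.8 bases in the 1 h table, 19.7 in the 22 h table and 19.7 in the third table, and at start 64 it was 19.2, 18.9 and 18.9 bases. The 3p ends were spread as well: positions 81, 82 and 83 held 25.8%, 25.5% and 28.2% of the 3p mean counts at 1 h, 26.5%, 24.9% and 25.0% at 22 h, and 28.4%, 25.1% and 25.3% in the third table.

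**Figure D5:**
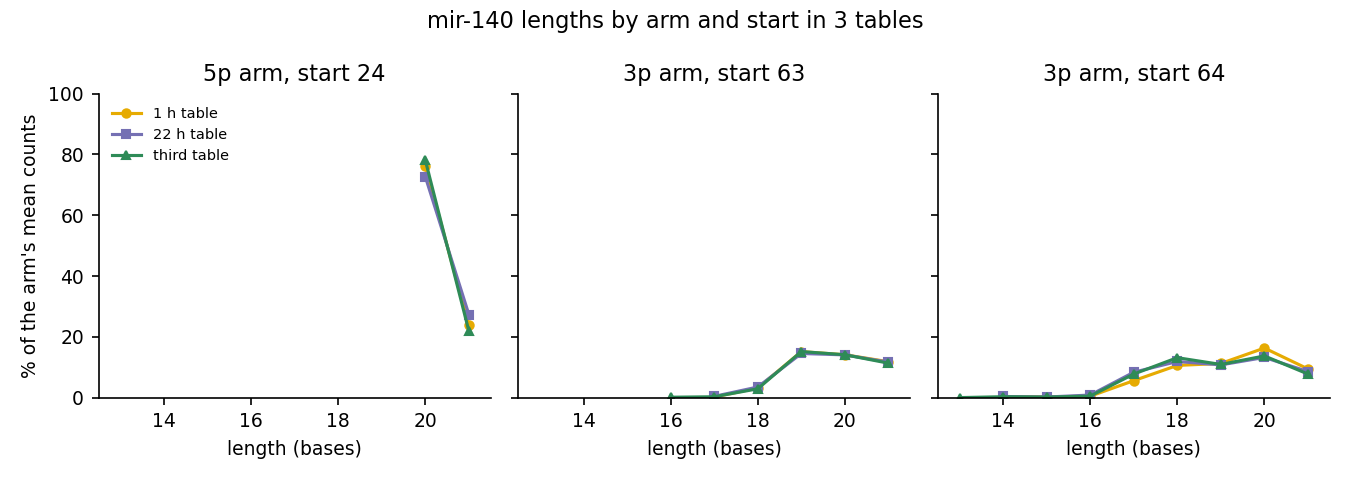
Percent of the mean counts of an arm (vertical axis) by length in bases (horizontal axis) for the starts 24, 63 and 64 of mir-140 in 3 tables. The 5p arm ends within 2 lengths, while each 3p start is spread over several.

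Entries that differ from the most abundant one of their start and length do so in the last bases. In the 5p arm, these 2 entries held 18.8% of the reads (17.2 to 20.5) in the library in both tables, 25.3% (23.1 to 27.5) in the library of the 22 h table only and 18.8% (17.5 to 20.1) in the library of the third table only. The higher share in the library of the 22 h table only came with T21A, at 45.6% of its pair (41.2 to 50.1) against 33.7% (29.6 to 38.0) in the library in both tables and 35.2% (31.8 to 38.8) in the library of the third table only. G20A had shares of 14.3% in the library in both tables, 15.4% in the library of the 22 h table only and 14.4% in the library of the third table only. In the 3p arm, 9 such entries held 13.2% of the reads (12.3 to 14.1) in the library in both tables, 14.8% (13.7 to 16.0) in the library of the 22 h table only and 13.8% (12.9 to 14.8) in the library of the third table only. In the same order of libraries, G18T at start 64 stood at 7.88% of its pair (5.88 to 10.3), 17.0% (13.0 to 21.6) and 8.80% (6.60 to 11.4). The library of the 22 h table only lay above the others. G18T itself had 49, 53 and 50 reads, against 573, 259 and 518 for the main entry of its pair. C20T at start 64 stood at 7.92% (5.99 to 10.2), 14.7% (11.2 to 18.7) and 10.5% (8.07 to 13.2). C20A stood at 10.6% (8.40 to 13.1), 18.4% (14.7 to 22.6) and 15.5% (12.7 to 18.6). For C20T and C20A, only the intervals of the first 2 libraries were apart. The interval of the library of the third table only overlapped each of them. C20A itself had 73, 72 and 94 reads and C20T had 53, 55 and 60. The main entry common to both pairs had 616, 320 and 514 reads. T21A of the 3p arm stood at 39.9% (35.2 to 44.7), 32.7% (27.2 to 38.6) and 41.7% (35.9 to 47.6), with overlapping intervals throughout. These variants were singled out after their values were seen.

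The other cartilage miRNA listed, mir-455, was present at 948 normalized counts in the 1 h table, 610 in the 22 h table and 899 in the third table, against 8493, 6280 and 8073 for mir-140. The median log2 ratio over the 27 mir-140 entries was 0.29 against the library of the 22 h table only and 0.33 against the library of the third table only. In the latter pair the arms differed, with medians of -0.31 over 4 entries of 5p and 0.38 over 23 entries of 3p. In the same order of pairs, the median was 0.73 and 0.27 over 9 entries of mir-455, and 0.0026 and 0.05 over all entries. A list of 14 precursors studied in doxorubicin cardiotoxicity, among them mir-34a and mir-208a, was detected in full. Over its 111 entries with reads the medians were -0.03 and 0.09, with 7 entries higher and 4 lower past 2-fold in the first pair and 8 higher and 3 lower in the second. Past 2-fold over all entries with at least 10 recovered reads were 10.9% (74 higher and 59 lower) in the first pair. In the second pair they were 7.65% (70 higher and 23 lower), so the counts of the list do not set it apart. The most abundant members of the list enter with few reads, since only 0.236% of the counts of mir-1-2 were recovered, against 99.6% of those of mir-34a and 99.4% of those of mir-140.

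The labelled cell type was checked with marker precursors, as percent of all mean counts, given in the order of the 1 h table, the 22 h table and the third table. The 7 cardiomyocyte markers, all detected and led by mir-1-2, held 33.5%, 35.2% and 37.1%. They include mir-1-1 and mir-1-2, at 578491 and 631761 normalized counts in the 1 h table. They also include mir-133a-1 and mir-133a-2, at 163953 and 164112. Members of each pair may not be separate measurements, so this share may hold the same reads under 2 names. It should not be read against the shares below as a measure of purity. Of the other cell types, the smooth muscle and pericyte markers mir-143 and mir-145 held 19.4%, 21.0% and 19.8%, nearly all of it mir-143. The endothelial marker mir-126 held 4.41%, 3.83% and 3.24%, and the 3 fibroblast markers, led by mir-199a, 0.266%, 0.201% and 0.197%. The cartilage list held 0.161%, 0.144% and 0.149%, of which mir-140 made up the larger part. The red blood cell list, led by mir-451a, held 0.0073%, 0.0024% and 0.0027%, and the leukocyte list, led by mir-142, 0.0088%, 0.0063% and 0.0071%. The liver marker mir-122 and the neuron markers mir-124-1 and mir-124-3 were not detected. Of the other neuron markers, mir-124-2 was at 0.567 normalized counts in the third table alone, and mir-9-1 was at 85.5, 54.3 and 102.4. The part of these other cell types in the mir-140 values was not tested.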

How the data were processed

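Small RNA libraries were aligned to human sequences (hg19 is named in the submitters' processing notes) and normalized by the authors in BaseSpace Small RNA 1.0, and groups were compared by the authors with DESeq2. The deposited means are a signal, reads divided by size factors and averaged over both groups. The other value columns hold the authors' fold changes, their errors and p-values, and were not used. Means in the 1 h and 22 h tables had no decimal mark, which was placed by reference to the matching entry in the table of DOX at 22 h and 1 h. The power of 10 nearest to that entry was taken, so similar levels across tables are partly built in. Entries without a match were left out, and 1506 of 1610 entries at 1 h had a mean. All 1323 restored means at 22 h could be built from whole reads, while those at 1 h had no such check. Members and lists were chosen with earlier results of these data known. Starts more than 15 bases apart were taken as different arms. Named were the most abundant entry of each arm and of each other start with at least 1% of its counts, the 5 arms nearest in level, and the lists of doxorubicin, cartilage and cell type miRNAs. The rule on bases absent from the hairpin could not be applied. Reads of 2 libraries per table were solved from the means, using the library both tables share. The check was that its reads satisfied both tables in 1052 of 1052 entries with a single solution at 22 h. Library depth is unknown, since the most abundant entries had several solutions. Log2 ratios of summed reads used the size factors, with 0.5 added for single entries where stated. No test was run. The alternatives changed the entries, weights, scaling, minimum reads and the amount added. Python 3.11.15, numpy 2.4.6, pandas 2.3.3 and scipy 1.17.1 were used.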

Additional observations from a re-analysis of the deposited data

How the results depend on the processing

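Of 70 alternative values, 51 stayed within the 95% interval of the value reported (for counts of entries, within 1.5 times) and none changed sign. The 51 include values that could not move. Restricting to means of at least 10 or to entries in all 3 tables moved none of 30 values. At 1 h and 22 h these limits removed no entry with a mean, the lowest means being 12.2 and 11.7. In the third table, the entries listed there alone held 0.554% of the mir-140 mean counts. The 5p start share was fixed at 100%, since every 5p entry began at position 24. With each entry counted once, the 3p share was 85.2% at 1 h and 22 h and 88.9% in the third table, the share of start 64 was 60.9%, 60.9% and 62.5%, the mean 3p length was 18.9, 18.9 and 18.8 bases, and the mean 5p length was 20.5 bases in each table, by construction, since rare sequences then weigh as much as abundant ones. With only the most abundant entry of an arm, the log2 ratio against the library of the 22 h table only was 0.57 for 5p and 0.47 for 3p, and that of 3p against the library of the third table only was 0.38; the cause was not tested. With at least 100 recovered reads, 24 entries were past 2-fold against the library of the 22 h table only and 12 against the library of the third table only, with fewer entries compared. Chosen after seeing the data were reads solved from the 22 h table alone, which gave 0.024 for 5p without its main entry, and the reads of the library of the third table only, with a 3p share of 57.8%. No mir-140 entry of all 3 tables could be solved from the third table alone. Matching to the hairpin was not run, as no hairpin sequence was used here.

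No paired analysis was possible because the tables hold no column per library, so the replicate numbers that the groups share could not be used. Each ratio compares 1 library with 1 other, not conditions. The size factors and the share of entries solved come from the means alone. The most abundant entries of some other precursors, such as mir-1-2, were not solved.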
